A study of Mus musculus with 20 samples.

Results

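The genes *Anks1*, *Rnf157*, *Txnip*, *Uba7*, *Rab3ip*, *Cbfa2t3*, *Gpr146*, *Cmtm7* and *Vps37b* were taken from the top of the study's ranking of promoters by the difference in DNA methylation between *Dnmt3a*-KO and WT CD4+ T cells. They are 9 of the 17101 genes in the deposited expression table, and the ranking, which used bisulfite sequencing and no RNA values, does not enter the measurements given here. The study asked how loss of DNMT3a in donor T cells changes alloreactivity after transplantation of blood and marrow. Donor T cells were sorted from the spleens of mouse recipients on day 10 after transplantation from C57BL/6J (B6) donors into irradiated B6D2F1 (F1) recipients, and poly(A) RNA was sequenced with strand-specific libraries. The 20 libraries fall into 5 groups of 4: cells of KO animals 1 to 4 sorted as CD4+, as CD8+ or as double-positive for CD4 and CD8 (DP), and cells of WT animals 2, 3, 5 and 6 sorted as CD4+ or as CD8+. By the sample records, all donors were 6 to 12 weeks and all recipients 8 to 12 weeks old. The study's methods give 8 to 12 weeks for donors. KO donors carried DNMT3a alleles with 2 loxP sites and CD4-Cre, a Cre recombinase driven by the *Cd4* promoter, and WT donors were littermates. Since T cell precursors pass through a stage that expresses *Cd4*, the deletion covers CD4+ and CD8+ donor T cells alike and precedes the transplantation. WT DP cells were not analysed here. Between 37547651 and 46966318 reads per library fell on genes.

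DNMT3A is a methyltransferase that adds methyl groups to cytosines of CG dinucleotides that were not methylated before, while DNMT1 copies existing methylation after replication and the TET enzymes oxidize it. In T cells, methylation laid down after activation is known to hold down genes of other lineages and states, and dense methylation of a promoter generally goes with a silent gene. The ranking used the Jensen-Shannon distance, which grows with any difference between methylation distributions, be it in level or in variability, so that a high place does not give the direction of the difference. Whether the RNA of these genes differed between the genotypes, and in which direction, is the question addressed here.

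*Dnmt3a* (chr12:3801559-3914443, GRCm38.p6), the targeted gene, was measured first as a check of the labels. Its normalized count was 1658, 1628, 1639.6 and 1385 in KO CD4+ libraries of animals 1 to 4 and 4906, 4689.98, 4839 and 5171 in WT CD4+ libraries of animals 2, 3, 5 and 6. In CD8+ cells it was 2007, 1287, 1515 and 1664 in KO and 3549, 3542, 3756 and 3812 in WT libraries, and in KO DP cells 1571, 1021, 650.4 and 1332. Every library labelled KO lay below every library labelled WT. Reads remained in all KO libraries, and the part of the gene they fell on was not analysed here.

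The T cell markers fitted the sorted subsets. *Cd4* was 44804 to 74386 in KO and 64652 to 72567 in WT CD4+ libraries, 302 to 458 in KO and 9.88 to 79.6 in WT CD8+ libraries, and 8758 to 15351 in KO DP libraries. *Cd8a* was 45783 to 68740.3 in KO CD8+, 62768 to 68732 in WT CD8+ and 41594 to 68516 in KO DP libraries. In KO CD4+ cells *Cd8a* was 3771, 115, 78.3 and 227 in animals 1 to 4, so that the library of animal 1 stood above the other 3, and in WT CD4+ cells it was 99.1 to 586. *Cd3e* was 16885 to 23273 in KO and 23516 to 26325 in WT CD4+ libraries (log2 fold change -0.25, limma FDR = 0.120). In CD8+ cells it was 18333.5 to 23917 in KO and 27380 to 29178 in WT libraries and fell (-0.39, FDR = 0.0133). KO DP libraries had 18911 to 24229.5. All KO values of *Cd3e* thus lay below all WT values of the same subset. The other CD3 genes did not pass: *Cd3d* had 0.06 (FDR = 0.761) in CD4+ and 0.07 (FDR = 0.519) in CD8+ cells. *Cd3g* had -0.10 (FDR = 0.670) and -0.08 (FDR = 0.671). *Cd8b1* and *Cd4* rose in CD8+ cells (0.38, FDR = 0.0208 and 3.88, FDR = 0.00263).

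Markers of other cell types were examined as well. The B cell marker *Cd79b* was 1073, 878, 581 and 652 in KO and 40.1, 82.6, 78.7 and 42.3 in WT CD4+ libraries. In CD8+ cells it was 2245, 2004, 1413 and 1713 in KO and 245, 189.99, 211 and 147 in WT libraries, and in KO DP cells 1741, 1998, 2185 and 1588. All KO values thus exceeded all WT values of the same subset. *Cd79a* rose in CD4+ cells, at 48.8 to 90.1 in KO and 1.94 to 13.4 in WT libraries (3.47, FDR = 0.00490), and overlapped in CD8+ cells, at 12.3 to 35.0 and 9.88 to 21.1 (0.93, FDR = 0.185). *Ms4a1* reached at most 4.39 in any library. The 6 myeloid markers summed to 1031, 1070.3, 3159 and 1286 in KO and 2569.6, 3108, 2991 and 3323 in WT CD4+ libraries, to 2918, 5759, 5006 and 2529.6 in KO and 4465, 4707, 3417 and 6010.2 in WT CD8+ libraries, and to 2897, 3244, 7338 and 2437 in KO DP libraries. Over all 20 libraries *Itgam* was the most abundant of them, and in WT CD4+ libraries *S100a9* was, by mean. The sums overlapped, but 3 of the 6 differed between most KO and WT libraries. *Lyz2* was 22.9, 30.4, 679.9 and 95.5 in KO and 618, 692, 606 and 839.9 in WT CD4+ libraries and fell (-3.03, FDR = 0.0352), and in CD8+ cells it was 80.3, 19.6, 716 and 91.9 in KO and 672, 455, 393 and 1017 in WT libraries (-2.53, FDR = 0.0619). *S100a8* and *S100a9* had log2 fold changes of -4.12 (FDR = 0.0884) and -4.19 (FDR = 0.0897) in CD4+ and of -3.98 (FDR = 0.0785) and -3.82 (FDR = 0.110) in CD8+ cells. For these 3 genes KO animals 1, 2 and 4 lay below every WT library of the same subset in CD4+ and in CD8+ cells, and animal 3 did not. The 5 pancreatic acinar markers, led by *Amy2a5*, summed to 1771, 1966, 6591 and 769 in KO CD4+ and 1670.4, 2570.3, 7027 and 673 in KO CD8+ libraries, with animal 3 highest in each, while WT libraries had 475 to 2188 among CD4+ and 392 to 1536 among CD8+ cells. Of 5 markers of plasmacytoid dendritic cells 4 are in the table, with *Bst2* the most abundant over all libraries and *Ly6d* at most 8.79. They summed to 4999.8, 3174, 4695 and 6762 in KO and 3777, 3204, 4079 and 3173 in WT CD4+ libraries, to 3449, 2689, 3087 and 5715 in KO and 2772, 2849.8, 2804 and 2685 in WT CD8+ libraries, and to 3534, 2618, 5079 and 5876 in KO DP libraries. In both subsets KO animals 1, 3 and 4 lay above all WT libraries and animal 2 lay within their range. *Ccr9* encodes a chemokine receptor that T cells also use for traffic to the small intestine, so it does not mark plasmacytoid dendritic cells alone. Its log2 fold change was 1.65 (FDR = 0.0522) in CD4+ and 1.74 (FDR = 0.0624) in CD8+ cells, and it showed the same division of KO animals. *Bst2* had -0.12 (FDR = 0.358) and -0.11 (FDR = 0.393), and *Tcf4* 0.04 (FDR = 0.946) and 0.27 (FDR = 0.426), so that most of the difference in the sums lay in *Ccr9*. What part these cells and transcripts have in the values of the 9 genes was not tested.

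The DP library of KO animal 3 stands apart. It had reads on 11783 genes, where the other KO libraries had reads on 13203 to 14198 and the WT libraries on 14421 to 14677. Every KO library thus had reads on fewer genes than every WT library, and the part of this in the differences between genotypes was not tested. The comparison of DP with CD8+ cells and the order of the group means are given with and without the DP library of animal 3. Correlations over the 20 libraries include it. In bulk RNA, a lower value can come from fewer cells that express a gene or from less RNA in each of them, and these cannot be told apart. Values are normalized counts, which are reads divided by a size factor for each library, and log2 fold changes are KO minus WT on the scale of log2(normalized count + 1). A gene passed a test when its p from limma, adjusted by Benjamini-Hochberg over all genes tested (FDR), was under 0.05.

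Between KO and WT CD4+ cells, the subset in which the promoters were ranked, 4 of the 9 genes rose in KO cells, among all 12391 genes of which 8.59% rose, and 1 of 9 fell, where 9.77% of all genes fell. The genes that rose were *Txnip*, *Gpr146*, *Rab3ip* and *Cmtm7*, and the gene that fell was *Uba7*. The groups did not overlap for 5 of the 9 genes, the 4 that rose and *Anks1*, against 25.6% of all genes. The share that fell is close to that of all genes. In CD8+ cells, *Txnip* and *Gpr146* rose, 2 of 9 against 12.6% of 12383 genes, and *Uba7* fell, 1 of 9 against 12.5%. These were also the 3 of 9 genes without overlap between the CD8+ groups, against 30.6% of all genes, so that the CD8+ counts lie near those of all genes. The median log2 fold change of the 9 genes was 0.33 in CD4+ and 0.28 in CD8+ cells, and that of all genes tested -0.05 and -0.04. All 9 genes passed the filter on low values, a mean of at least 10, in each comparison.

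**Figure D1:**
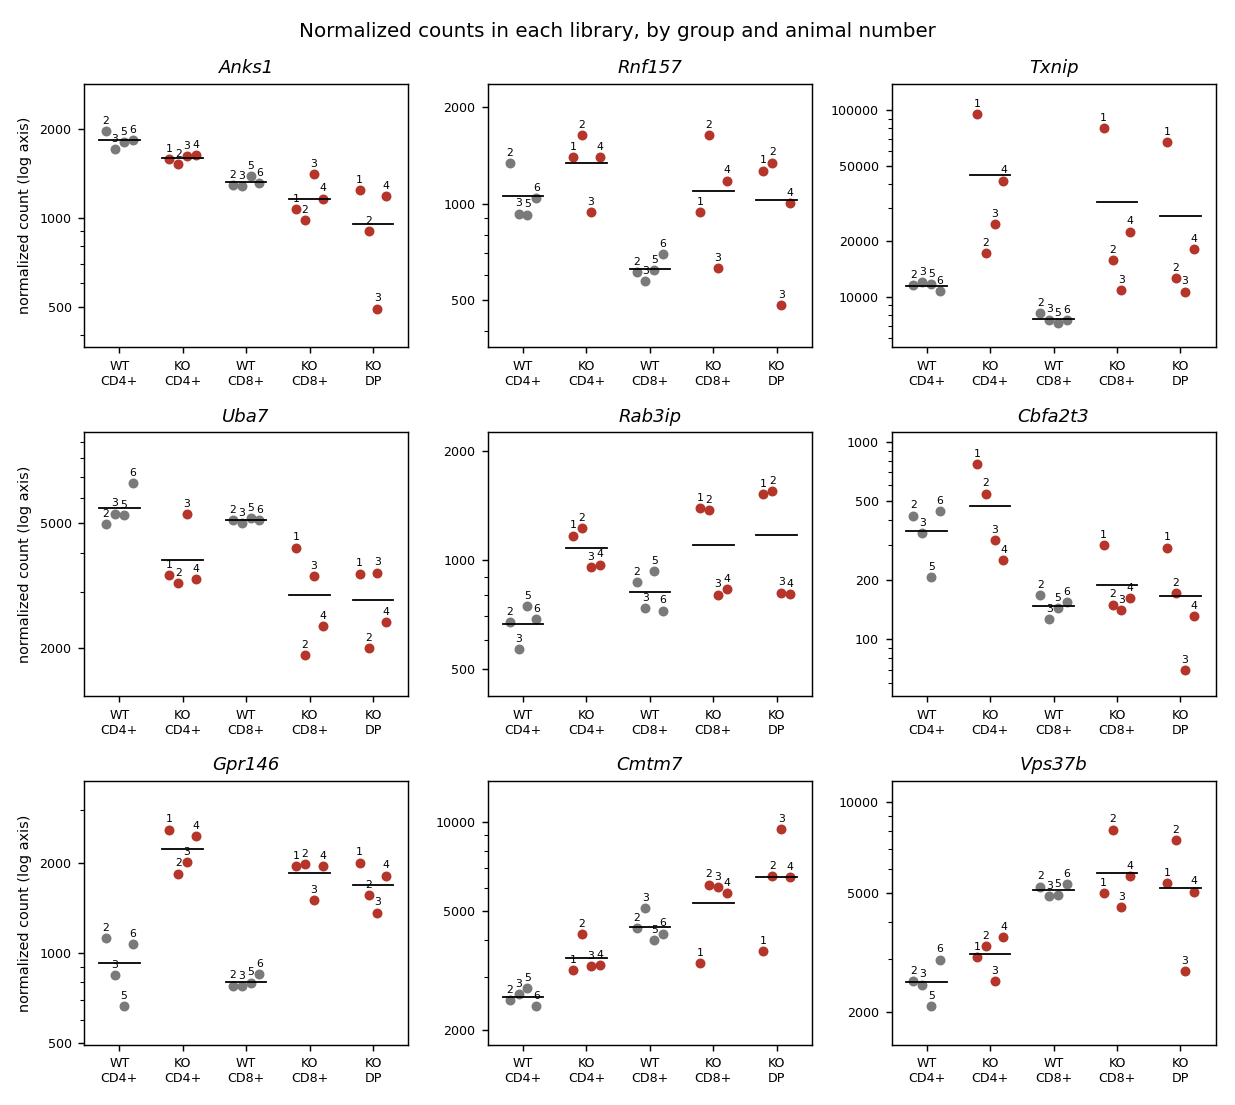
Normalized count of each gene (y axis, log scale) in every library of the 5 groups (x axis). Points are libraries with the animal number above them, WT in grey and KO in red, and black bars are group means; the *Gpr146* counts of KO libraries, 1367 or more, lie above all WT libraries, 1123 or less.

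*Txnip* (chr3:96557957-96561857) encodes the thioredoxin-interacting protein, an arrestin-domain protein that binds thioredoxin and limits glucose uptake. In CD4+ cells its normalized count was 95433, 17073, 24615 and 41926 in KO animals 1 to 4 and 11531, 11994, 11700.3 and 10769 in WT animals 2, 3, 5 and 6. In CD8+ cells it was 79765, 15669, 10827 and 22323 in KO and 8166, 7567, 7273 and 7529 in WT libraries, and in KO DP cells 67198, 12648, 10666 and 18026. The WT libraries lay close together and below every KO library of their subset, while KO libraries spread widely, with animal 1 far above the others in all 3 subsets. The SD on the log2 scale was 1.08 among KO and 0.07 among WT CD4+ libraries, and 1.25 and 0.07 among CD8+ libraries. *Txnip* rose by a log2 fold change of 1.65 (SE 0.41, limma FDR = 0.0244) in CD4+ cells and 1.62 (SE 0.50, limma FDR = 0.0411) in CD8+ cells, and on the count scale the SD among KO libraries, 35347 in CD4+ and 32094 in CD8+ cells, exceeded the difference between the means. The calls did not hold in every fit. In CD4+ cells *Txnip* missed the threshold whichever WT replicate, 2, 3, 5 or 6, was left out (FDR = 0.0584 to 0.0746). The log2 fold changes in these fits were 1.62 to 1.67, and 628 to 1106 genes passed in all instead of 2274. In CD8+ cells it missed the threshold without KO replicate 4 (0.0782) or WT replicate 2, 3, 5 or 6 (0.0842 to 0.0938), at 1.60 to 1.65. It also missed it in a joint fit of the 20 libraries (0.0743 in CD4+ and 0.0626 in CD8+ cells). With KO replicate 1 left out, the value was 1.18 in CD4+ (FDR = 0.0194) and 1.03 in CD8+ cells (FDR = 0.00647). By group means the order was KO CD4+, KO CD8+, KO DP, WT CD4+ and WT CD8+, and of neighbours in this order WT CD4+ and WT CD8+ did not overlap.

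Of 8 genes of thioredoxin and of the glucose response to which *Txnip* belongs, 7 were tested in each subset, and 0 passed in either direction by limma. Their median log2 fold change was 0.09 in CD4+ and 0.06 in CD8+ cells. *Arrdc4*, an arrestin-domain relative of *Txnip* that responds to the same glucose-sensing factors, had a log2 fold change of -1.51 (FDR = 0.0678) in CD4+ and -1.30 (FDR = 0.0990) in CD8+ cells, opposite in sign to *Txnip* and not past the threshold. *Txn1*, thioredoxin itself, had -0.07 (FDR = 0.614) and 0.06 (FDR = 0.739), and *Mlxip*, which encodes the glucose-sensing factor MondoA, 0.13 (FDR = 0.326) and -0.08 (FDR = 0.643). *Mlxipl* was too low to be tested. Among 4 arrestin-domain genes of the table, *Arrdc1* fell in CD8+ cells, by 0.53 on the log2 scale (FDR = 0.00314), and no other passed in either subset.

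*Gpr146* (chr5:139377697-139396415) encodes a G protein-coupled receptor. In CD4+ cells it was 2588, 1845, 2018 and 2461 in KO and 1123, 847, 668 and 1072 in WT libraries. The CD8+ values were 1954, 1987, 1509 and 1954 in KO and 779.9, 775, 799 and 855 in WT libraries, and KO DP libraries had 2007, 1563, 1367 and 1818. Each of the 12 KO libraries lay above each of the 8 WT libraries, whatever the subset. *Gpr146* rose by 1.28 (SE 0.17, limma FDR = 0.00316) in CD4+ and 1.20 (SE 0.11, limma FDR = 0.000479) in CD8+ cells, with all 4 KO libraries above all 4 WT libraries in each. It was called in all 8 fits that each left out 1 library and in all 8 other settings without a block in both subsets, and with 1 library left out the highest FDR was 0.0134 in CD4+ and 0.00338 in CD8+ cells. Its order by means was KO CD4+, KO CD8+, KO DP, WT CD4+ and WT CD8+, and KO DP and WT CD4+ were the neighbours that did not overlap.

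*Uba7* (chr9:107975567-107984056) encodes the E1 enzyme that activates the ubiquitin-like protein ISG15, an interferon-induced pathway. Its normalized count in CD4+ cells was 3412, 3206, 5326 and 3313 in KO and 4939, 5340.3, 5275 and 6669.8 in WT libraries. In CD8+ cells the values were 4163, 1897, 3385 and 2349.7 in KO and 5099.7, 4993, 5173 and 5083 in WT libraries, and in KO DP cells 3441, 1996, 3465 and 2412. KO CD4+ animal 3 lay above 2 of the 4 WT libraries, so the CD4+ groups overlapped, and the other 3 KO animals lay below all WT libraries. For the myeloid markers *S100a8* and *Lyz2* the same 3 KO CD4+ libraries, and not that of animal 3, lay below all WT libraries. *Cd68*, *Itgam* and *Csf1r* did not divide the libraries in this way. *S100a8* was 793 in KO animal 3, 0 to 115 in the other KO animals and 449 to 781 in WT libraries, and *Lyz2* was 679.9, 22.9 to 95.5 and 606 to 839.9. Their part in the *Uba7* result was not tested. In CD8+ cells all KO libraries lay below all WT libraries, which spanned only 4993 to 5173. That of animal 3 was among them, at 3385, while its *S100a8* (468) and *Lyz2* (716) lay within the ranges of WT CD8+ libraries. *Uba7* fell with a log2 fold change of -0.57 (SE 0.16, limma FDR = 0.0363) in CD4+ and -0.85 (SE 0.21, limma FDR = 0.0178) in CD8+ cells. The CD4+ call rests on the full set of libraries: of the 8 fits that left out 1 library it passed only without KO replicate 3 (log2 fold change -0.74, FDR = 0.00283), with FDR values of 0.0571 to 0.110 without KO replicate 1, 2 or 4 or WT replicate 2, 3, 5 or 6, and edgeR on whole reads gave 0.0524 and the joint fit 0.101. In CD8+ cells it was not called without WT replicate 5 or 6 (FDR = 0.0506 in each). Its order was WT CD4+, WT CD8+, KO CD4+, KO CD8+ and KO DP, with overlap between all neighbours.

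Of the 4 further genes of ISG15 conjugation, 2 fell in each subset, *Ube2l6* and *Herc6*, which encode the E2 enzyme and the mouse E3 ligase of ISG15. Their log2 fold changes were -1.08 (FDR = 0.0260) and -0.75 (FDR = 0.00590) in CD4+ cells and -1.02 (FDR = 0.0136) and -0.63 (FDR = 0.00580) in CD8+ cells. *Isg15* had -0.34 (FDR = 0.284) and -0.36 (FDR = 0.129), and *Usp18*, the protease that removes ISG15, -0.21 (FDR = 0.449) and 0.02 (FDR = 0.974), not past the threshold. The median over the 4 genes was -0.55 in CD4+ and -0.49 in CD8+ cells. Of 4 other genes of E1 ubiquitin-activating enzymes tested in each subset, 0 passed, with medians of -0.10 in CD4+ and -0.12 in CD8+ cells.

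*Rnf157* (chr11:116336345-116413391) encodes a RING-finger ubiquitin ligase. In CD4+ cells it was 1395, 1635, 942 and 1401 in KO and 1337, 931, 924 and 1042 in WT libraries. In CD8+ cells it was 943, 1637, 628 and 1180.1 in KO and 609.8, 572, 618 and 694 in WT libraries, and in KO DP cells 1268, 1345, 480.3 and 1004. The groups overlapped in both subsets, with animal 2 the highest and animal 3 the lowest in each KO group. The log2 fold change was 0.33 (SE 0.18, limma FDR = 0.202) in CD4+ and 0.73 (SE 0.25, limma FDR = 0.0566) in CD8+ cells. Without KO replicate 3 the gene was called in CD4+ (0.49, FDR = 0.0372) and in CD8+ cells (0.97, FDR = 0.00461), and in CD8+ cells it was also called after quantile normalization (0.0316), by edgeR (0.0368) and by DESeq2 (0.00663) on whole reads. All neighbours overlapped in the order KO CD4+, KO CD8+, WT CD4+, KO DP and WT CD8+. *Mgrn1*, its closest paralog, had a log2 fold change of 0.39 (FDR = 0.232) in CD4+ and 0.33 (FDR = 0.456) in CD8+ cells, and *Anks1b*, the paralog of *Anks1*, was too low to be tested.

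The next 3 genes act in membrane traffic. *Rab3ip* (chr10:116905780-116950456) encodes Rabin8, the exchange factor that switches on the GTPase RAB8. Its normalized count was 1167, 1226, 954 and 971 in KO and 672, 568, 744 and 685 in WT CD4+ libraries, 1394, 1376, 802 and 832 in KO and 868, 736, 932 and 724 in WT CD8+ libraries, and 1519, 1554, 812 and 804 in KO DP libraries. In CD4+ cells all KO libraries lay above all WT libraries, whereas in CD8+ cells animals 1 and 2 lay above and animals 3 and 4 within the WT range, and DP cells showed the same division of animals. *Rab3ip* rose by 0.69 (SE 0.13, limma FDR = 0.00912) in CD4+ cells, a call that held in all 8 fits with 1 library left out but not in the joint fit (FDR = 0.0555), and in CD8+ cells it had 0.39 (SE 0.20, limma FDR = 0.183). The order was KO DP, KO CD8+, KO CD4+, WT CD8+ and WT CD4+, with KO CD4+ and WT CD8+ as the neighbours that did not overlap. Of 7 genes of the RAB8 exchange cascade, 1 fell in CD4+ cells, *Rab3il1*, the paralog of *Rab3ip* (-1.74, FDR = 0.0121). In CD8+ cells *Rab3il1* fell too (-1.68, FDR = 0.0210), and *Rab8a* and *Exoc6* rose (0.29, FDR = 0.0181 and 0.42, FDR = 0.0111). The median over the 7 genes was 0.13 in CD4+ and 0.14 in CD8+ cells.

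*Cmtm7* (chr9:114756836-114781993) encodes a MARVEL-domain membrane protein of the chemokine-like factor family. Its counts were 3178, 4188, 3262 and 3301 in KO and 2508, 2641, 2765 and 2401 in WT CD4+ libraries. In CD8+ cells they were 3357, 6145, 6034 and 5769 in KO and 4394, 5111, 4011 and 4206 in WT libraries, and in KO DP cells 3663, 6548, 9431 and 6503. KO CD4+ libraries lay above all WT CD4+ libraries, and in CD8+ cells KO animal 1 lay below all WT libraries and the other 3 above. *Cmtm7* rose by 0.43 (SE 0.10, limma FDR = 0.0189) in CD4+ cells, and in CD8+ cells it had 0.23 (SE 0.18, limma FDR = 0.376). The CD4+ call was lost without WT replicate 2 (FDR = 0.0535) or 6 (0.0665) and in the joint fit (0.214). Without KO CD8+ replicate 2 the CD8+ value was 0.15, and without KO CD8+ replicate 1 it was 0.44 and passed (FDR = 0.00696). By means the order was KO DP, KO CD8+, WT CD8+, KO CD4+ and WT CD4+, and of neighbours KO CD4+ and WT CD4+ did not overlap. Of 5 other family members in the table, 4 were tested: *Cmtm6* rose in both subsets (0.32, FDR = 0.0318 in CD4+ and 0.35, FDR = 0.00570 in CD8+ cells), *Cmtm3* fell in both (-0.63, FDR = 0.0134 and -0.50, FDR = 0.0272), and *Cklf* fell in CD8+ cells (-0.55, FDR = 0.00832). The median over the 4 was -0.19 in CD4+ and -0.24 in CD8+ cells.

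*Vps37b* (chr5:124004641-124032260) encodes a subunit of ESCRT-I, the complex that sorts ubiquitinated membrane proteins into endosomes. Its normalized count was 3039, 3317, 2529 and 3547 in KO and 2524, 2461, 2093 and 2984 in WT CD4+ libraries, and 4991, 8109, 4456 and 5668 in KO and 5233, 4874, 4916 and 5334 in WT CD8+ libraries. KO DP libraries had 5388, 7499.6, 2724 and 5036. KO and WT overlapped in both subsets, with log2 fold changes of 0.31 (SE 0.13, limma FDR = 0.117) in CD4+ and 0.15 (SE 0.16, limma FDR = 0.499) in CD8+ cells, and the gene was called once, in CD4+ cells without KO replicate 3 (0.40, FDR = 0.0398). In CD8+ cells its sign turned in 1 of 17 other settings, without KO replicate 2 (-0.02), and the value was 0.27 without KO replicate 3. The order of means was KO CD8+, KO DP, WT CD8+, KO CD4+ and WT CD4+, with no overlap between WT CD8+ and KO CD4+. Of 8 other ESCRT-I genes, 3 rose in CD4+ cells, *Mvb12b* (0.90, FDR = 0.0102), *Mvb12a* (0.33, FDR = 0.0284) and *Vps28* (0.23, FDR = 0.0304). In CD8+ cells *Mvb12b* rose (1.20, FDR = 0.0145) and *Tsg101* fell (-0.38, FDR = 0.0330) among the 7 tested. The list's median was 0.20 in CD4+ and 0.09 in CD8+ cells.

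*Anks1* (chr17:27909304-28062779) encodes an adaptor with ankyrin repeats and SAM domains that binds Eph receptors. In CD4+ cells it was 1582, 1522, 1619 and 1628 in KO and 1960.05, 1709, 1803 and 1834 in WT libraries. The CD8+ values were 1072, 984, 1402 and 1160.2 in KO and 1292, 1281, 1380.3 and 1313 in WT libraries, and those of KO DP cells 1239, 899, 493 and 1185. All KO CD4+ libraries lay below all WT CD4+ libraries, by little, and the CD8+ groups overlapped because KO animal 3 was above all WT libraries while the other 3 were below. The log2 fold changes, -0.20 (SE 0.08, limma FDR = 0.0959) in CD4+ and -0.20 (SE 0.11, limma FDR = 0.215) in CD8+ cells, did not pass the threshold, and the CD8+ value was -0.13 without KO replicate 2 and passed without KO replicate 3 (-0.30, FDR = 0.0308). The order was WT CD4+, KO CD4+, WT CD8+, KO CD8+ and KO DP, with overlap between neighbours from WT CD8+ on and none before.

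*Cbfa2t3* (chr8:122625136-122699332) encodes ETO2, a corepressor that works with E proteins and TAL1 in blood cells. Its values were 768, 545, 317 and 250.4 in KO and 422, 344, 207 and 444 in WT CD4+ libraries. In CD8+ cells they were 299, 149, 140.2 and 161 in KO and 167, 127, 144 and 154 in WT libraries, and in KO DP cells 290.2, 171, 69.5 and 130.4. KO animal 1 was the highest in each KO group, and KO and WT overlapped in both subsets. The log2 fold change was 0.33 (SE 0.36, limma FDR = 0.527) in CD4+ and 0.28 (SE 0.26, limma FDR = 0.455) in CD8+ cells, and the CD8+ sign turned in 1 of 17 other settings, the replicate block. That block pairs KO with WT libraries by number, though equal numbers are different animals. The size depended on single libraries: in CD4+ cells it was 0.05 without KO replicate 1, 0.21 without KO replicate 2, 0.58 without KO replicate 4 and 0.09 without WT replicate 5, and in CD8+ cells 0.03 without KO replicate 1, never past the threshold. It depended on the scaling too, at 0.54 (limma FDR = 0.150) in CD8+ cells after quantile normalization. All neighbours overlapped in the order KO CD4+, WT CD4+, KO CD8+, KO DP and WT CD8+. Of 13 genes of its family and of the complexes it works in, 12 were tested in each subset. The E protein gene *Tcf12* rose in both subsets (0.42, FDR = 0.0134 in CD4+ and 0.62, FDR = 0.00349 in CD8+ cells). *Tal1* fell in CD4+ (-3.57, FDR = 0.0461) and *Lmo2* in CD8+ cells (-1.91, FDR = 0.0333), both genes of erythroid cells too and low in KO libraries, with means of 20.4 for *Tal1* in KO CD4+ and 35.7 for *Lmo2* in KO CD8+ cells. The median of the list was 0.00 in CD4+ and -0.10 in CD8+ cells.

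**Figure D2:**
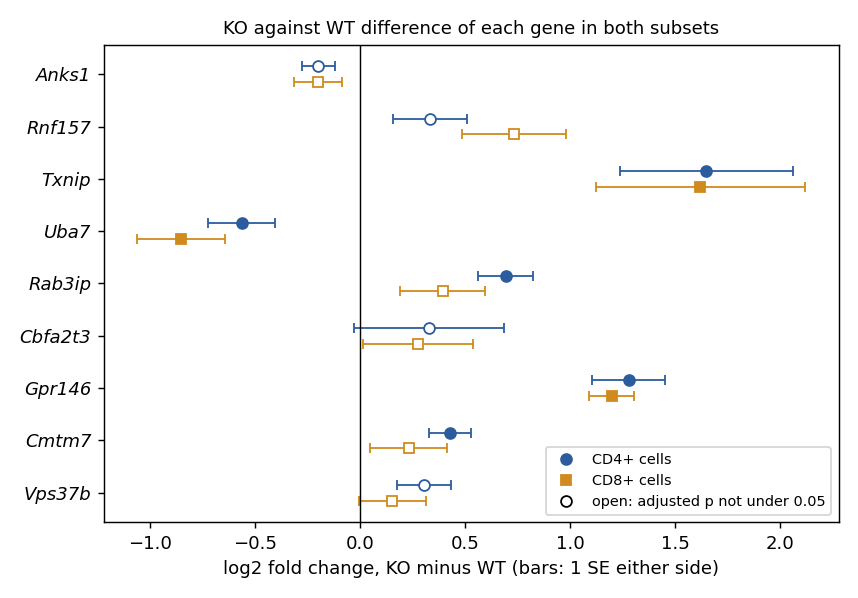
Log2 fold change of KO minus WT (x axis) for each gene (y axis) in CD4+ cells (circles) and CD8+ cells (squares), 4 libraries a group, with bars of 1 SE either side and filled symbols for an adjusted p under 0.05. *Txnip* has the widest bars (0.41 and 0.50) and *Uba7* the most negative values in both subsets.

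Whether the KO minus WT difference was unequal in CD4+ and CD8+ cells was tested as an interaction. Of the 9 genes 0 passed in limma, 0 had an unadjusted p under 0.05, and 0 passed by edgeR or DESeq2 on whole reads, where 0.0161% of 12446 genes passed in limma. These were 2 genes, *Cd4* and *Nr3c1*, named after their values were seen. In the limma fit of all libraries, the largest interaction estimate in size was that of *Rnf157*, -0.40 (SE 0.33), a smaller rise in CD4+ than in CD8+ cells, followed by *Rab3ip* at 0.30 (SE 0.25). Leaving out 1 library in turn gave -0.64 to -0.18 for *Rnf157*, 0.16 to 0.43 for *Rab3ip* and -0.44 to 0.62 for *Txnip*. With the animal as a paired replicate block, 173 genes passed and 0 of the 9, with the lowest adjusted p for *Rnf157* (0.265). A call in CD4+ cells and none in CD8+ cells, as for *Rab3ip* and *Cmtm7*, is therefore not shown to be a difference between the subsets. The CD4+ and CD8+ libraries of a genotype come from the same animals.

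With *Dnmt3a* intact, most of these genes differed between the subsets. Between WT CD4+ and WT CD8+ cells, 4 of the 9 were higher in CD4+ cells, where 22.3% of 12559 genes were, and 3 of the 9 were lower, where 22.2% were. *Cbfa2t3* (1.20, limma FDR = 0.000479), *Rnf157* (0.75, FDR = 0.000140), *Txnip* (0.59, FDR = 6.27e-07) and *Anks1* (0.47, FDR = 3.51e-05) were higher, given as log2 fold changes of CD4+ over CD8+. *Vps37b* (-1.03, FDR = 5.69e-07), *Cmtm7* (-0.78, FDR = 1.79e-06) and *Rab3ip* (-0.29, FDR = 0.0441) were lower. For 6 of the 9 genes, those called other than *Rab3ip*, the WT subsets did not overlap, where 41.8% of all genes did not. *Gpr146* (0.18, FDR = 0.306) and *Uba7* (0.12, FDR = 0.228) were not past the threshold. Leaving out 1 library in turn gave 0.08 to 0.33 for *Gpr146* and 0.03 to 0.17 for *Uba7*. The *Rab3ip* call was lost without a filter on low values (FDR = 0.0533) and without WT CD4+ replicate 2, 3 or 6 or WT CD8+ replicate 2 or 5 (0.0552 to 0.140), and *Gpr146* passed without WT CD4+ replicate 5 (0.33, FDR = 0.0227). In a joint fit of the 20 libraries *Cmtm7* and *Vps37b* were the 2 that passed.

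DP cells and CD8+ cells of the same 4 KO animals were compared. Of the 9 genes 0 passed in limma (FDR = 0.871 or more), 0 had an unadjusted p under 0.05, and 0 passed by edgeR or DESeq2, where 0.00823% of 12153 genes passed, a single gene, *Cd4*, named after its values were seen. The log2 fold changes, DP minus CD8+, ran from -0.35 for *Anks1* to 0.26 for *Cmtm7*. These values come from a fit that does not pair libraries by animal. In the DP library of animal 3, *Anks1*, *Rnf157*, *Txnip*, *Cbfa2t3* and *Gpr146* were the lowest and *Cmtm7* the highest of all 12 KO libraries. In this library *Vps37b* was also the lowest of the 8 KO DP and KO CD8+ libraries. Without it *Anks1* was at -0.06, *Cmtm7* at 0.06, *Rnf157* at 0.21 instead of -0.12, *Cbfa2t3* at 0.06 instead of -0.29 and *Vps37b* at 0.06 instead of -0.22, and again 0 of the 9 passed. *Txnip* was at -0.22 with and 0.08 without that library, *Gpr146* at -0.14 and -0.04, *Uba7* at -0.03 and -0.14, and *Rab3ip* at 0.07 and 0.22. Leaving out a library of animal 1 moved *Txnip* further, to -0.80 without its DP and 0.37 without its CD8+ library. *Cmtm7* was at 0.51 and 0.05 in these 2 fits. Since leaving out 1 library keeps the other library of its animal, these changes also carry differences between animals. Within animals 1 to 4, the normalized count in DP over that in CD8+ cells was 0.842, 0.807, 0.985 and 0.808 for *Txnip*, lower in DP cells in all 4, and 1.09, 1.07, 1.56 and 1.13 for *Cmtm7*, higher in all 4. The ratios of each of the other 7 genes lay on both sides of 1. With the animal as a paired replicate block and all 4 animals, 0 of the 9 passed, with FDR = 0.405 for *Txnip* and 0.405 for *Cmtm7*.

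The orders of group means given for each gene include the DP library of animal 3. Without it the DP mean moved above that of KO CD8+ cells for *Rnf157* (1205 against 1097), *Txnip* (32624 against 32146), *Cbfa2t3* (197 against 187) and *Vps37b* (5974 against 5806). For *Rnf157* it also moved above that of WT CD4+ cells, which left WT CD4+ and WT CD8+ as neighbours that did not overlap. DP and CD8+ cells of KO animals overlapped for every gene either way, and the orders of the other 5 genes stayed.

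Single KO animals had the highest or the lowest value in every subset for several genes, while no gene kept the full order of the 4 animals over the 3 subsets. Animal 1 had the highest *Txnip* and *Cbfa2t3* and the lowest *Cmtm7* in all 3 KO groups, animal 2 the highest *Rnf157* and the lowest *Uba7*, and animal 3 the lowest *Rnf157* and *Vps37b*. Over the 20 libraries, which share animals and fall into 5 groups, the highest correlation between 2 of the 9 genes on the log2 scale was that of *Txnip* and *Gpr146* (Pearson's r = 0.786), and the lowest that of *Anks1* and *Cmtm7* (-0.845).

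For 8 of the 9 genes, all but *Anks1*, those with the most similar pattern are given, out of the 10034 genes whose normalized count averaged 100 or more, by Pearson's r on the log2 scale over the same 20 libraries. For *Txnip* they were *Pdcd4* (Pearson's r = 0.963, Spearman's rho = 0.962) and *Ypel5* (Pearson's r = 0.963, Spearman's rho = 0.935), and for *Gpr146* *Qrfp* (Pearson's r = 0.948, Spearman's rho = 0.860) and *Nrde2* (Pearson's r = 0.937, Spearman's rho = 0.925). For *Uba7* they were *Parp10* (Pearson's r = 0.939, Spearman's rho = 0.911) and *Rfx5* (Pearson's r = 0.937, Spearman's rho = 0.877), and for *Rnf157* *Tns2* (Pearson's r = 0.924, Spearman's rho = 0.895) and *Lef1* (Pearson's r = 0.888, Spearman's rho = 0.883). For *Rab3ip* the genes were *Polr3c* (Pearson's r = 0.915, Spearman's rho = 0.797) and *Ngly1* (Pearson's r = 0.907, Spearman's rho = 0.785), for *Cmtm7* *Phgdh* (Pearson's r = 0.948, Spearman's rho = 0.938) and *Cenpa* (Pearson's r = 0.936, Spearman's rho = 0.947) and for *Vps37b* *Mef2a* (Pearson's r = 0.949, Spearman's rho = 0.926) and *Cercam* (Pearson's r = 0.931, Spearman's rho = 0.938). For *Cbfa2t3* they were *Hs3st3b1* (Pearson's r = 0.917, Spearman's rho = 0.962) and *Rxra* (Pearson's r = 0.916, Spearman's rho = 0.904). These values describe likeness over libraries that differ in subset, genotype and animal at once.

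Of 7 genes of the DNA methylation machinery, *Dnmt3a* included, *Dnmt3a* fell in both subsets (-1.64, FDR = 1.26e-05 in CD4+ and -1.20, FDR = 0.000654 in CD8+ cells), *Dnmt3b*, which encodes the other methyltransferase that acts on unmethylated sites, rose in both (1.08, FDR = 0.000594 and 0.72, FDR = 0.00371), and *Tet2* fell in CD4+ cells (-0.60, FDR = 0.0149). *Dnmt1*, *Uhrf1*, *Tet1* and *Tet3* did not pass in either subset. The median over the list was -0.36 in CD4+ and -0.23 in CD8+ cells.

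The ranking reaches beyond these 9 genes. Its first 300 symbols were divided into 4 blocks of 75 in ranked order, and 287 of them are in the table. In CD4+ cells, 60 of the 267 ranked genes tested rose (22.5%) and 17 fell (6.37%), beside 8.28% and 9.84% of the other genes. In CD8+ cells 68 of 263 rose (25.9%) and 21 fell (7.98%), beside 12.4% and 12.6%. From the first to the fourth block, the share that rose in CD4+ cells was 22.9%, 26.9%, 17.7% and 22.1%, with no steady order along the ranking, and the share that fell 10.0%, 0%, 11.3% and 4.41%. The median log2 fold change of the ranked genes was 0.08 in CD4+ and 0.15 in CD8+ cells, against -0.05 and -0.04 of the others. Ranked genes were also more abundant, with a median normalized count of 1751 against 1128 among the genes tested in CD4+ cells, and the part of abundance in these shares was not tested.

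Neighbours on the chromosome were examined after the values of the 9 genes were seen: genes of the table that overlap 1 of the 9 or lie next to it on either side. Of 21 such neighbours 15 were tested in CD4+ cells, of which 2 rose and 0 fell in limma, and 16 in CD8+ cells, of which 3 rose and 3 fell. Of all genes tested, 8.59% rose and 9.77% fell in CD4+ cells, and 12.6% and 12.5% in CD8+ cells. *Cmtm6*, 7476 bases from *Cmtm7*, rose in both subsets as given above. *Abcb9*, 29596 bases from *Vps37b*, rose in both, with log2 fold changes of 1.21 (FDR = 0.00287) in CD4+ and 0.52 (FDR = 0.0143) in CD8+ cells. *Gm15441*, which overlaps *Txnip*, had 0.68 (FDR = 0.483) and 1.10 (FDR = 0.212) at a mean normalized count of 35.9 over the 20 libraries. *3110082I17Rik*, which overlaps *Gpr146*, had -0.35 (FDR = 0.227) and -0.34 (FDR = 0.456), opposite in sign to *Gpr146*. The study's counting took the strand into account. *Taf11*, which overlaps *Anks1*, rose in CD8+ cells (0.36, FDR = 0.0260), and *Hip1r* beside *Vps37b* (-0.23, FDR = 0.0275) and *Trappc2l* (-0.43, FDR = 0.0393) and *Acsf3* (-0.34, FDR = 0.0447) on the sides of *Cbfa2t3* fell there. *Polr3gl* beside *Txnip* and *Ip6k1* and *Traip* beside *Uba7* did not pass in either subset.

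Since the genes were chosen by promoter methylation, the CG dinucleotides at which it can occur were counted in RefSeq promoter windows of GRCm38.p6, each of 300 bases, from 250 before the transcript start to 50 from the start on. The counts cover 12 windows of 8 of the 9 genes, all but *Vps37b*. Over the 15524 windows of genes in the table the median was 18 CG, and the lower quartile was 7. The 12 windows ranged over nearly the whole scale. *Uba7*, the gene that fell in both subsets, had 2 CG, a number below which 4.4% of windows lie, and *Cbfa2t3* had 53 in its more 3′ window, below which 99.3% of windows lie, and 10 in the other. *Txnip* had 24, *Rab3ip* 28, *Cmtm7* 15, *Rnf157* 48, *Anks1* 39 and 42 in overlapping windows, and *Gpr146* 9, 32 and 4. In windows of 4 kb centred on the same starts, the width the study used for promoters, *Uba7* had 59 CG, *Cmtm7* 133, *Txnip* 111, *Rab3ip* 177, and the 3 windows of *Gpr146* 69, 130 and 51, where the median was 102. Those of *Anks1* had 199 and 199, that of *Rnf157* 199 and those of *Cbfa2t3* 221 and 57. Genes that rose in CD4+ cells and genes that did not thus both had windows above and below that median.

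**Figure D3:**
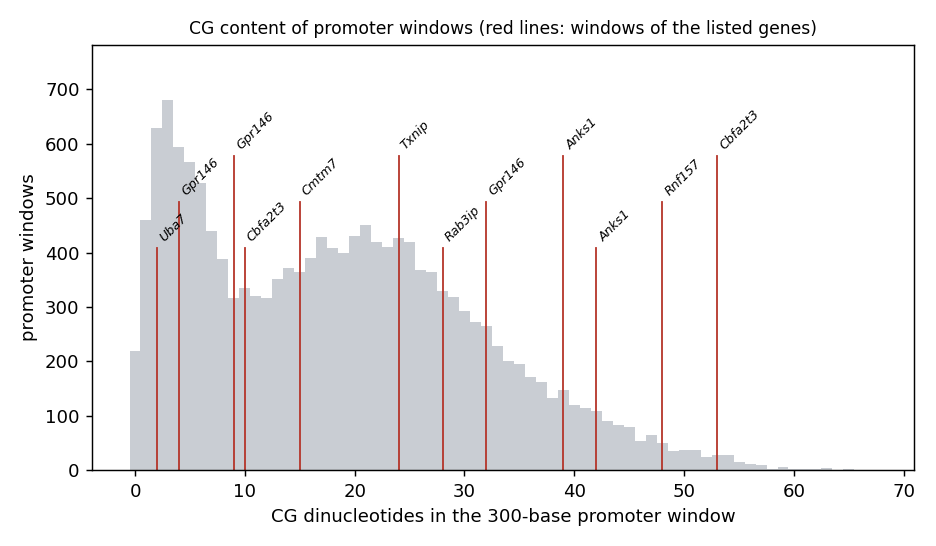
Number of promoter windows (y axis) by CG dinucleotides per 300-base window (x axis) for 15524 windows of genes in the table, in grey, with red lines at the 12 windows of 8 of the listed genes. *Uba7* lies at 2 and *Cbfa2t3* at 10 and 53, with the median of all windows at 18.

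The windows of the 5 genes that changed in CD4+ cells are printed 5′ to 3′ on the strand of the gene, to show where cytosines open to methylation lie, with every CG in capitals and all other bases in lower case. For *Gpr146* the window with the most CG is shown.
Txnip, chr3:96557707-96558006, plus strand: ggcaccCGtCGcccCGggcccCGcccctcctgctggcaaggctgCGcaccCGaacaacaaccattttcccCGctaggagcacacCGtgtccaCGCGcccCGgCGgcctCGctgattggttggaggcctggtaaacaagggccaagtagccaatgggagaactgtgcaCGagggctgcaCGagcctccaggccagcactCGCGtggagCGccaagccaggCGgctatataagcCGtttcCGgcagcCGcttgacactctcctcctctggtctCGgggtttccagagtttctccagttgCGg
Gpr146, chr5:139380389-139380688, plus strand: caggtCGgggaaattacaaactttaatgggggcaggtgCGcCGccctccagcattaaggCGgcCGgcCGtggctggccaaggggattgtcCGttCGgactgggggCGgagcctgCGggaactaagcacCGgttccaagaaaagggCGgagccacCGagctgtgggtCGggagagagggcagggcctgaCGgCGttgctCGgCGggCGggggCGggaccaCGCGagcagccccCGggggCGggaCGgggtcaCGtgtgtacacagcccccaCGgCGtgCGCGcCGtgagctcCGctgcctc
Rab3ip, chr10:116950404-116950703, minus strand: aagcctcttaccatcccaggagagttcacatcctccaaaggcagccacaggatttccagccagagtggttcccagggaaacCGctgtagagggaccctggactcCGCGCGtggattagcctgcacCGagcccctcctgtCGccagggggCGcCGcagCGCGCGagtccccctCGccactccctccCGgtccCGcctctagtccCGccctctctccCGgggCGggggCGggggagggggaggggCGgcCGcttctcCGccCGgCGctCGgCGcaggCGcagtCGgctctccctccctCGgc
Cmtm7, chr9:114781944-114782243, minus strand: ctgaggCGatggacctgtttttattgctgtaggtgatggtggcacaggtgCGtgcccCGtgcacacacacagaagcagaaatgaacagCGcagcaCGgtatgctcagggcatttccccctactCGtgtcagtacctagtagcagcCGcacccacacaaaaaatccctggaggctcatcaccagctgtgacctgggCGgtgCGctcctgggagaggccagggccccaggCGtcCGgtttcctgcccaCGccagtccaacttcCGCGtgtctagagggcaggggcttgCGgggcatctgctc
Uba7, chr9:107975317-107975616, plus strand: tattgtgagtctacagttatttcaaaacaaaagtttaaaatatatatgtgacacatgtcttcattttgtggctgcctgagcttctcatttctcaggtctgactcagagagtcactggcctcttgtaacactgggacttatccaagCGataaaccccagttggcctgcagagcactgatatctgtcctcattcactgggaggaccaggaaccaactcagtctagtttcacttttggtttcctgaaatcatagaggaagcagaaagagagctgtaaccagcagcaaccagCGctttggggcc

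In each window 3 motifs were sought on both strands. A pair of CACGNG copies with 5 bases between them, the E-box form to which the glucose-sensing MondoA and ChREBP factors with MLX are known to bind, occurred in 12 of the 15524 windows (0.0773%). *Txnip* was the 1 listed gene that held it, as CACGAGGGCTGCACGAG at bases 166 to 182 of its window. AAANNGAAA, a short form of the sites of interferon regulatory factors, occurred in 1306 windows (8.41%), and among the listed genes in *Uba7* alone, as AAAGTGAAA on the strand opposite to the gene at bases 224 to 232. TATAAA occurred in 1335 windows (8.60%) and in 0 of the 12. The matches describe letters in the windows, and binding was not tested.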

How the data were processed

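RNA of 20 libraries in 5 groups, assigned from the deposited labels, was analysed. The authors aligned reads to mm10 with STAR (2.7.2b in the submitters' processing notes), counted them on exons with strand, and deposited signal, counts normalized with DESeq2, for 17101 genes. Multiplying by the recovered factor of each library returned whole reads for 100% of values (tolerance 0.0001). log2(normalized count + 1) was tested with limma 3.58.1 in R 4.3.3 (trend, 2-sided, Benjamini-Hochberg over all genes with a mean of at least 10, threshold 0.05), using only the groups compared. Other settings were 10 in place of 1 added before the log, either no filter or a mean of 50, quantile and 75th percentile scaling, edgeR 4.0.16 and DESeq2 1.42.0 on whole reads, a joint fit, a replicate block and each library left out. Equal animal numbers deviated together within KO (r 0.440 to 0.761) and WT (0.25 to 0.316), which pairs their libraries. No libraries were duplicates. The calculations were tested on simulated data in which each gene had the same spread in KO and WT. Unequal spread, as for *Txnip*, was not covered. The genes and lists were chosen with earlier results of these data known: the 9 genes, *Dnmt3a*, genes of the lists used and genes most like them are named. Bisulfite data were not used here.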

Additional observations from a re-analysis of the deposited data

Results flagged for a closer look

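In 7 of the 45 groups of 4 libraries (9 genes in 5 groups), the highest or lowest library lay far from the other 3, by a share of the whole range above the 5% critical value of Dixon's test. About 1 in 20 groups does so by chance alone, and the groups share animals and are not independent.

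For *Txnip*, KO animal 1 stood far above the rest in CD8+ cells (79764.7, gap 0.833 of the range) and in DP cells (67198.3, gap 0.870). The same animal had the lone high *Cbfa2t3* value of KO CD8+ cells (298.7, gap 0.869) and the lone low *Cmtm7* value of KO CD8+ cells (3356.8, gap 0.865). *Uba7* in KO CD4+ animal 3 was alone at 5326.4 (gap 0.903), in the range of WT libraries. *Cmtm7* in KO CD4+ animal 2 was the lone high library of its group (4187.8, gap 0.878). *Gpr146* in KO CD8+ animal 3 was the lone low library (1508.5, gap 0.931) and still lay above every WT library. All 7 are KO libraries, and most of the groups examined were KO groups. What set these libraries apart was not tested.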

How the results depend on the processing

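Among the 9 genes in 5 comparisons, settings that kept all libraries left the side of the threshold as given in 382 of 405 results, lost the call in 20 and gained one in 3; with 1 library left out in turn the numbers were 401, 25 and 6 of 432. The sign turned in 10 of the 405 and 38 of the 432, none of them for a result that had passed: 9 and 22 in the interaction, 0 and 15 between KO DP and KO CD8+ cells, and 1 each for *Cbfa2t3* (replicate block) and *Vps37b* (without KO replicate 2) between KO and WT CD8+ cells. Between KO and WT CD4+ cells, the count of 5 of the 9 genes fell to 1 in a joint fit of the 20 libraries, where 1285 genes passed in all instead of 2274, and ranged from 2 (without WT replicate 2 or 6) to 7 (without KO replicate 3) with 1 library left out, where 628 to 2963 genes passed. In CD8+ cells the joint fit gave 2014 genes instead of 3118, and leaving out 1 library gave 1 (without WT replicate 5 or 6) to 5 (without KO replicate 3) of the 9 genes and 1633 to 4092 genes in all. The interaction was called for 2 genes in all, for 7 without a filter, 1 by edgeR, 21 by DESeq2, 1 in the joint fit, and 0 to 5 with 1 library left out. Between WT subsets the joint fit gave 2 of the 9 genes and 1595 genes in all instead of 5592. DESeq2 called 3 genes between KO DP and KO CD8+ cells. The cause of these moves was not tested. KO and WT libraries share only the numbers 2 and 3, which belong to different animals (r of their deviations 0.055 to 0.165). A block by number therefore compares KO with WT within these numbers only, in pairs that the design does not hold. It gave 8 of the 20 lost calls. With that number as a replicate block, 0 of the 9 genes and 26 genes in all passed in CD4+ cells and 0 of the 9 and 89 in CD8+ cells. Within a genotype numbers mark animals, and with this paired replicate block 173 genes passed the interaction test; the block changed no other call of the 9 genes.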
